A study of Mus musculus with 30 samples.

Results

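The 139 genes described here are the expressed protein-coding genes of the distal end of mouse chromosome 5, whose levels and allele shares were measured in embryonic stem cell lines with a single X chromosome. They were chosen as protein-coding genes starting beyond position 135000000 of chromosome 5 (mm10, GENCODE M21) with a mean above 5 TPM (reads per exon length, scaled to the same total in each library) in the 2 XX *Rnf12* libraries. Of 269 protein-coding genes beyond that position, 142 passed the TPM limit, and *Cox19*, *Atp5j2* and *Rpl21* were left out with their families of ribosomal and respiratory genes. The whole table holds 55421 genes, and 9437 other expressed autosomal protein-coding genes, filtered in the same way, served as the background. The interval was chosen by its 129 share and level, which were already known to be altered in 3 of the 4 XO libraries, so the values of those libraries are given as a description and without a test.

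All cells were female mouse embryonic stem cells (mESCs) of a 129/Sv x Cast/Ei cross, in which single-base differences between the parents assign a part of the reads to the 129 or the Cast allele. The XX *Rnf12* cells (*Rnf12* +/-) lack the 129 copy of *Rnf12*, an X-linked gene for a ubiquitin ligase that promotes X inactivation, and the XX wild type cells carry both copies. The study describes the XO lines as clones of such *Rnf12* +/- cells that lost a whole X chromosome during CRISPR targeting: XCastO129 kept the Cast X and X129OCast kept the 129 X, with 2 libraries each. On that description XCastO129 kept the intact *Rnf12* copy and X129OCast had none. XO genotype and *Rnf12* status thus cannot be told apart here. The 13 deletion lines carry heterozygous deletions of X segments (A, B, AB, C, C-G, D, E, F, H, I, I-TEL, J and K) in *Rnf12* +/- cells, in 22 libraries, and A, B, AB and C-G are each 1 clone. Per the study, J and I-TEL were made in another, independently made *Rnf12* +/- founder line than the single-segment deletions A to I and K. The genotype labels do not name the founder. The labels give no clone for the 2 libraries of an XO genotype, and the study describes the replicates of XCastO129 as independent clones. All lines were grown on feeder fibroblasts with serum and LIF, and feeders were depleted before collection. The 4 XO libraries formed a sequencing batch of their own with single reads, and the other 26 libraries had paired reads, so that a contrast of XO with XX cells cannot be told apart from batch and read type. For that reason the library XCastO129.2, which is of the same batch and showed no shift of this interval, is the reference below. All 3 comparisons share it. The labels name no batch for the paired-read libraries. Here the XX and deletion E libraries are treated as 1 batch and the other 20 deletion libraries as another. Total counts were 20374510 to 21180709 in the former and 8815980 to 10679746 in the latter.

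A gain of chromosome copies usually raises the RNA of the genes on it in proportion, but some genes stay near their former level, which is called buffering or dosage compensation. Autosomal gains are frequent in cultured mESCs. In cells of 2 strains, the allele share tells which parental copy was gained: with 1 copy of 129 and 1 of Cast the 129 share is near 50%, with 3 Cast copies it is 25%, and with 5 it is 16.7%. Copy number in DNA was not measured, so copies are named here only as the number that would give a value.

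Total counts ranged from 14997997 to 16494587 in the XO libraries and from 8815980 to 21180709 in the others, of which 21.9% to 22.0% and 12.18% to 12.7% were allelic. The 8 mESC markers summed to 9419 to 11273 TPM in the XO libraries, and to 9031 to 15213 TPM in 20 of the deletion libraries, which is the range for the labelled cell type here. The 10 fibroblast markers summed to 123 TPM in XCastO129.1, 233 in XCastO129.2, 102 in X129OCast.1 and 168 in X129OCast.2, and none was at 0 in these libraries. The samples are bulk cultures, in which fewer cells with a transcript and less of it per cell cannot be told apart. The 2 X129OCast libraries were the closest pair of any condition, with a chi-square per degree of freedom of 3.35 over 14938 genes, and this was still above sampling noise. That of the XCastO129 pair was 21.5.

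Sequence upstream of the gene is shown for a pair of heat shock genes, since their levels differed: *Hspb1* had the highest level ratios of the members that passed 500 counts, while *Hsph1* stayed close to the median of the interval. The 250 bases before the start (RefSeq, GRCm38.p6) lie at chr5:135887669-135887918 on the + strand for *Hspb1*, which encodes the small heat shock protein HSP27, and at chr5:149636337-149636586 on the - strand for the more upstream of 2 starts of *Hsph1*, which encodes the chaperone HSP105. Capitals mark the paired heat shock units GAANNTTC or TTCNNGAA, searched on both strands, where each reads the same on the opposite strand.
Hspb1: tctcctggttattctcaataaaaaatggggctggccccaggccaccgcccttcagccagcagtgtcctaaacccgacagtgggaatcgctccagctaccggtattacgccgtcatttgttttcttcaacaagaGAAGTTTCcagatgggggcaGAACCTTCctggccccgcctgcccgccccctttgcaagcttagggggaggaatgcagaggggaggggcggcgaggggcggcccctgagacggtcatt
Hsph1: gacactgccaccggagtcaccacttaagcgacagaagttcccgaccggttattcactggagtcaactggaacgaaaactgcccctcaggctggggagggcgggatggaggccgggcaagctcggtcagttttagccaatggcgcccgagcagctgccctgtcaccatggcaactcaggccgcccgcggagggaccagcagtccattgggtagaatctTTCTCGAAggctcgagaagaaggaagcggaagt
The *Hspb1* sequence held GAANNTTC at 117 and 97 bases before the start, and the *Hsph1* sequence held TTCNNGAA at 33 bases before it. Of 32851 promoters of the same length, 6.69% held GAANNTTC, 7.17% held TTCNNGAA, and 0.228% held GAANNTTC at more than 1 place. With both units counted together, 1.46% held more than 1. Of the 121 members with a promoter in the table, 17 held either unit, as did 12.8% of all promoters, so the letters are a description and not a measured site.

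In XCastO129.1, X129OCast.1 and X129OCast.2, nearly every gene of the interval was higher than in XCastO129.2, and the median ratio was close to a log2 of 1. The median log2 level ratio of the 139 genes was 0.97 in XCastO129.1 (quartiles 0.78 and 1.21), 1.07 in X129OCast.1 (0.88 and 1.34) and 1.06 in X129OCast.2 (0.87 and 1.34). These are 1.96, 2.10 and 2.09 times the level of the reference. The other autosomal genes had medians of -0.01, -0.02 and -0.02. Of the 139 genes, 136, 137 and 137 were higher than in the reference.

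**Figure D1:**
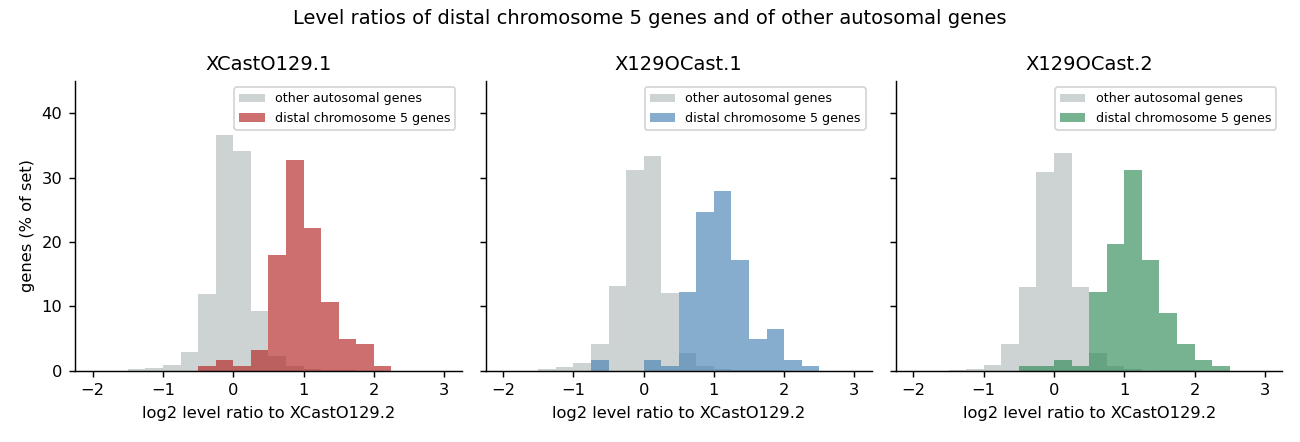
Distribution of log2 level ratios to XCastO129.2 (x axis, bins of 0.25) in 3 XO libraries, as the percentage (y axis) of 122 distal chromosome 5 genes (coloured) and of 7157 other autosomal genes (grey) with 200 counts or more in each XO library. The coloured bars centre near 1 and the grey bars near 0 in each panel.

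Most of the higher RNA level was in Cast reads. The median 129 share was 52.5% in XCastO129.2 (131 genes with 20 allelic counts or more) and 26.6%, 26.8% and 27.4% in XCastO129.1, X129OCast.1 and X129OCast.2 (136, 137 and 136 genes). In the 26 paired-read libraries the median of the same genes lay between 49.7% and 55.1%, so none of these had a shift, XX and deletion lines alike. Per gene, 105 members had 20 allelic counts in all 30 libraries, and in 99 of them the share in each of the 3 libraries was below that in every paired-read library, against 1.32% of 5837 other genes. The share of XCastO129.2, which also has single reads, lay within the paired-read range for 96 of the 105. The reads were then scaled separately by allele. Reads of the Cast allele had a median log2 ratio of 1.63, 1.74 and 1.70 to the reference, which is 3.10, 3.33 and 3.26 times its level, while reads of the 129 allele had medians of -0.02, 0.15 and 0.17. A share near 25%, a level near 2 times and Cast reads near 3 times the reference are the values that 4 copies, 3 of Cast and 1 of 129, would give.

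The altered interval began before the position that the selection used. *Auts2*, which starts at 131437333, was the last expressed gene with a usual share (40.8% to 44.1% in the 3 libraries and 45.0% in the reference). *Castor2* at 134099711 had 22.1%, 20.3% and 18.8% against 49.5%. The closest genes outside the threshold behaved like those inside it. *Cldn3* (134986214), *Cldn4* and *Mettl27* outside had log2 level ratios from 1.56 to 2.31, and *Abhd11* (135009152), *Stx1a* and *Bud23* inside had ratios from 1.61 to 2.22. At the TPM limit, *Baiap2l1* (5.16 TPM) and *Iqce* (5.16 TPM) just inside had ratios from 0.63 to 1.23, while *Zp3* (4.07 TPM) and *Zkscan14* (4.39 TPM) just outside had ratios from 0.47 to 2.22. When the 129 share of 241 genes beyond position 120000000 was divided into 3 stretches by least squares, the first border fell between *Auts2* and *Castor2* in each of the 3 libraries.

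The second border of that division split the interval itself. It fell between *Hip1* (135406531) and *Rhbdd2* (135632618) in XCastO129.1 and X129OCast.2, and between *Rhbdd2* and *Por* (135670033) in X129OCast.1. With level ratios in place of shares it fell later, after *Hspb1* in XCastO129.1 and after *Rasa4* in the other two. For the 12 members up to *Hip1*, the median level ratio was 1.62, 1.76 and 1.73 and the median share 17.7%, 16.2% and 17.3%, against 45.2% in the reference. For the 127 members beyond it, the medians were 0.94, 1.04 and 1.04 for the level and 27.2%, 27.1% and 28.5% for the share. Cast reads of the first stretch had medians of 2.18, 2.51 and 2.48, or 4.54, 5.70 and 5.59 times the reference, where 6 copies, 5 of them Cast, would give a share of 16.7%. Its 129 reads, over the same 10 genes, had medians of 1.06, 1.30 and 1.43 times the reference, where an unchanged 129 copy would give 1. The 129 reads of both X129OCast libraries thus lay above that value. The split was made after the values were seen. By 129 share, its sites were the same or neighbouring genes in libraries of both XO genotypes, while by level they lay further apart.

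**Figure D2:**
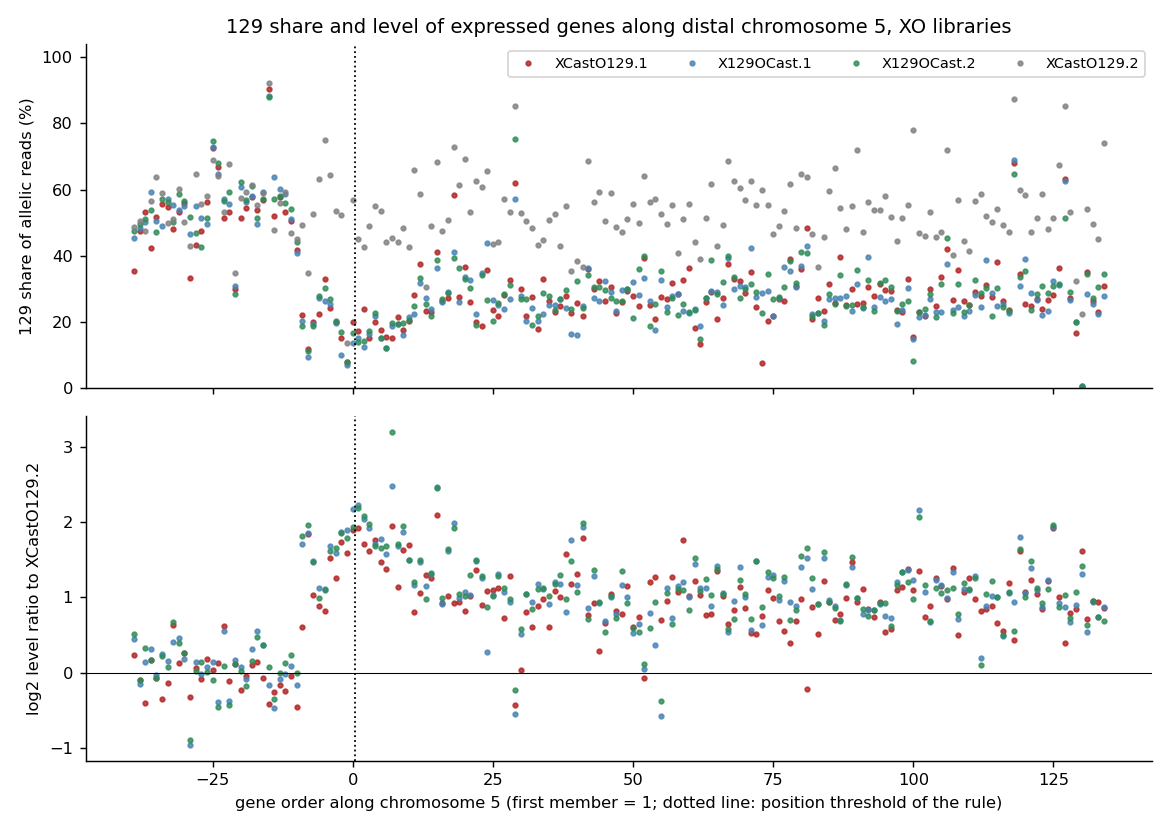
Upper panel, 129 share of allelic reads (%) in 4 XO libraries, and lower panel, log2 level ratio to XCastO129.2 in 3 of them, for expressed protein-coding genes in their order along chromosome 5 (x axis, first member at 1, dotted line at the position threshold). The share of the reference (grey) stays around 50%, while the other libraries lie mostly below it from position -10 on (Castor2, 18.8% to 22.1%) and settle near 27% further along.

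The 12 members of the first stretch were all listed here under the mouse counterpart of the Williams region, named after the human syndrome caused by its deletion. The list does not set the borders of the human deletion, and *Castor2*, where the altered interval began, is not on it. Of its listed genes 12 were members, and the 8 with 200 counts or more in each XO library all lay above the midpoint between 2 and 3 copies (log2 of 0.29) in the 3 libraries. *Bud23*, which encodes a methyltransferase of ribosomal RNA, had 76.7 TPM in the reference and 234, 282 and 293 TPM in XCastO129.1, X129OCast.1 and X129OCast.2. Its 129 share was 48.9% in the reference and 15.2%, 16.5% and 17.3% in these. *Baz1b*, a subunit of chromatin remodelling complexes, had 80.4 TPM against 208, 234 and 250 TPM. Its 129 reads were nearly level (log2 ratios of -0.02, -0.20 and -0.08), so that the difference lay in its Cast reads (2.08, 2.33 and 2.42). The values of *Pom121*, a membrane nucleoporin, were 102 TPM and 314, 363 and 383 TPM. *Tbl2* had 24.7 TPM and 83.7, 78.5 and 77.5 TPM, and *Abhd11*, a mitochondrial hydrolase, had 44.9 TPM and 170, 205 and 199 TPM. The reference was thus below all 3 libraries for each of these genes. The least even of the Williams genes was *Fkbp6*, a germ cell cochaperone, with 6.89 TPM in the reference, 26.7 in XCastO129.1, 37.6 in X129OCast.1 and 61.9 in X129OCast.2, on 58 to 497 counts.

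Genes were then sorted by the size of their level ratio. Of the 122 members with 200 counts or more in each XO library, 115 lay above the midpoint of 0.29 in all 3 libraries, 2 below it in all 3 (among them *Zfp157*), and 5 were mixed (*Srrt*, *Zkscan1*, *Pdgfa*, *Tnrc18* and *Zfp655*). Of the 7157 other autosomal genes with such counts, 3.47% lay above the midpoint in all 3. With the midpoint to 4 copies, at 0.5, 111 members and 0.936% of the other genes lay above it. The exact 95% counting interval of the ratio lay wholly above 0 in all 3 libraries for 116 of the 122 members, against 11% of the other genes. It lay wholly above a log2 of 1 for 26 members (0.112% of the other genes), included 1 in all 3 for 14 and lay wholly below 1 for 20. These intervals cover counting error only, not variation between cultures. The members spread slightly more around their own median than the other genes did around theirs: beyond *Hip1*, 67.5%, 64.9% and 63.2% of 114 members lay within 0.29 of it, against 76.9%, 71.6% and 71.4% of the other genes.

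Subunits of multiprotein complexes are often thought to be sensitive to dosage, and here their RNA was higher like that of the rest of the interval. Of 28 listed subunits with enough counts, 27 lay above the midpoint in all 3 libraries, and the median ratios, given for each list over all its members, were 0.93, 1.07 and 1.05, against 0.97, 1.07 and 1.06 for the whole interval. *Cops6* of the COP9 signalosome had ratios of 1.05, 1.00 and 1.02. For *Pomp*, an assembly factor of the proteasome, they were 1.22, 1.23 and 1.11, and for *Arpc1a* of the actin-nucleating Arp2/3 complex 1.25, 1.23 and 1.13. *Polr2j* of RNA polymerase II had 156 TPM in the reference and 298, 303 and 314 TPM in the others. The exception was *Srrt*, an RNA-processing factor that acts with the cap-binding complex, described below.

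Genes of replication and repair had somewhat lower ratios to XCastO129.2 than the interval as a whole. All 13 with enough counts lay above the midpoint in the 3 libraries, with medians of 0.84, 0.83 and 0.73. *Mcm7*, a subunit of the replicative helicase, had 494 TPM in the reference and 868, 829 and 797 TPM in the others, or 0.81, 0.78 and 0.73. *Brca2*, needed for repair by recombination, had ratios of 0.71, 0.54 and 0.63, and *Pms2*, a mismatch repair protein, of 0.57, 0.72 and 0.62. *Rfc3*, part of the clamp loader, had 0.86, 0.88 and 0.68, and *Mad1l1* of the spindle checkpoint 1.01, 1.06 and 1.04. Against the XX *Rnf12* libraries instead, *Mcm7* had ratios of 1.24, 1.20 and 1.15 and *Brca2* of 1.03, 0.85 and 0.95, because XCastO129.2 was itself at 0.42 and 0.32. The medians of the whole interval were then 1.12, 1.18 and 1.19. *Rfc3* had 1.26, 1.28 and 1.09, *Mad1l1* 1.36, 1.41 and 1.39, and *Pms2* 0.82, 0.96 and 0.86. A median of this list was not computed against XX *Rnf12*, so the lower ratios of the group are stated for XCastO129.2 only.

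The other groups sat near the median of the interval. Of 17 transcription and RNA genes 15 lay above the midpoint in all 3 libraries, with medians of 0.92, 1.11 and 1.13 (*Taf6* of TFIID at 1.15, 1.01 and 0.93, *Foxk1* at 0.69, 0.96 and 1.01). Of the translation genes, 7 of 7 did, among them *Eif3b* of initiation factor 3 with 658 TPM in the reference and 1188, 1283 and 1321 TPM in the others. All 13 cytoskeleton and signalling genes did, with medians of 1.09, 1.18 and 1.05. *Rac1*, a small GTPase of the actin network, had 132 TPM and 285, 220 and 231 TPM. *Actb*, which encodes beta-actin and had the highest level of the interval, had 3968 TPM and 5667, 7280 and 7290.2 TPM, so its ratio was lower in XCastO129.1 (0.52) than in X129OCast.1 and X129OCast.2 (0.91 and 0.92). The 13 genes of protein folding and turnover all lay above the midpoint, with medians of 1.00, 1.10 and 1.09, and *Hsph1* of the sequence above had 191 TPM and 341, 346 and 392 TPM.

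Zinc finger genes of the interval had the lowest share above the midpoint of the lists. Of 7 with enough counts, 4 lay above the midpoint in all 3 libraries, and the medians over all 9 were 0.77, 0.79 and 0.68. *Zfp157* had 5.03 TPM in the reference and 4.78, 5.09 and 5.27 TPM in the others, on 202 to 227 counts. Its level was thus flat, although its 129 share was 64.3% in the reference and 39.3%, 33.3% and 40.0% in the others. Its 129 reads were 72 in the reference and 35, 37 and 42 in the 3 libraries, and its Cast reads had log2 ratios of 0.43, 0.83 and 0.76. *Zfp655* had 37.0 TPM and 64.9, 41.4 and 38.8 TPM, near the reference in both X129OCast libraries but not in XCastO129.1. *Zscan21* (0.65, 0.69 and 0.54) and *Zkscan1* (0.28, 0.93 and 0.94) were below the median of the members too.

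A pair of other genes had an altered share with a level that differed between the libraries. *Pdgfa*, a growth factor, had 36.7 TPM in the reference, 59.3 in XCastO129.1 and only 23.9 and 27.5 in X129OCast.1 and X129OCast.2, while its share was 52.8% against 27.6%, 32.7% and 35.6%. *Srrt* had 363 TPM against 372, 504 and 529 TPM, and its 129 reads numbered 1426 in the reference and 931, 1209 and 1059 in the others. For these genes the share moved with the rest of the interval, while the level moved less or the other way.

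At the other end, *Hspb1* had the highest ratios among members with 500 counts or more. It had 305 TPM in XCastO129.2 and 1301, 1650 and 1623 TPM in XCastO129.1, X129OCast.1 and X129OCast.2, with log2 ratios of 2.10, 2.47 and 2.45. Reads of both alleles were higher: the 129 reads had log2 ratios of 1.30, 1.42 and 1.44 and the Cast reads of 2.92, 3.34 and 3.21. In the 22 deletion libraries its level ran from 287 to 525 TPM with a median of 369, and the reference library was inside that range while the 3 others were above it. *Tsc22d4*, a leucine zipper protein, had 11.0 TPM and 37.9, 40.8 and 42.3 TPM, with 129 ratios of 0.99, 1.17 and 1.16. *Slc7a1*, the cationic amino acid transporter CAT1, had 21.3 TPM and 80.5, 79.5 and 80.3 TPM, and 129 ratios of 1.03, 1.23 and 1.17. *Gtf3a*, the transcription factor of 5S ribosomal RNA genes, had ratios of 1.62, 1.80 and 1.65.

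Reads of the 129 allele were then taken by themselves. Of 102 members with 100 allelic counts or more in each XO library, 55 (53.9%) had 129 reads within 0.5 of the reference in all 3 libraries, fewer than the 69.4% of 4882 other genes, while all 102 had Cast reads more than 0.5 higher, against 2.31% of the others. Higher 129 reads in all 3, beyond 0.5, were found for *Hspb1*, *Slc7a1*, *Tsc22d4*, *Hip1*, *Lnx2* and *Rasa4*, against 1.58% of the other genes. Lower 129 reads beyond 0.5 were found for *B3glct* alone, against 1.97% of the others. *B3glct*, a glucosyltransferase gene, had 54 reads of the 129 allele among 239 allelic reads in the reference and 4 in each of the 3 libraries (of 761, 637 and 608), while its level was higher (67.0, 53.2 and 57.0 TPM against 22.0). Its share ran from 0% to 19.5% in the paired-read libraries with a median of 9.01%, so the reference, at 22.6%, stood above that range. Across the 112 members beyond *Hip1* with 20 allelic and 200 total counts, genes with higher Cast ratios tended to have higher 129 ratios (Spearman's rho 0.45, 0.54 and 0.48, as a description, since both ratios share libraries and scaling).

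**Figure D3:**
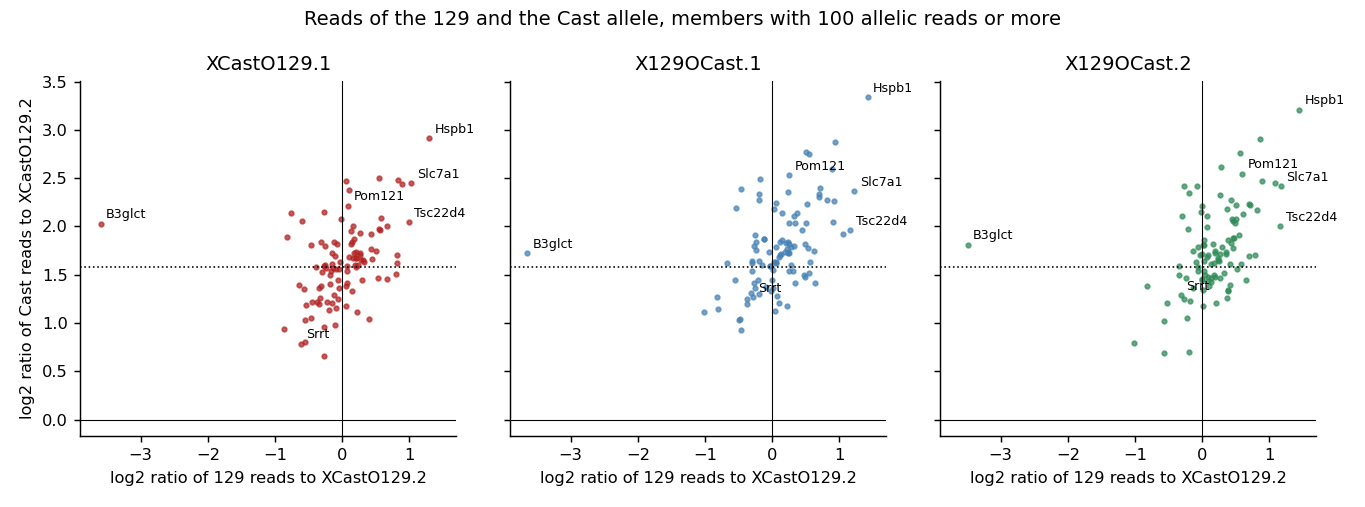
Log2 ratio of 129 reads (x axis) against log2 ratio of Cast reads (y axis) to XCastO129.2, 1 point per gene with 100 allelic counts or more in each XO library, 1 panel per library. The dotted line marks 3 times the Cast reads; most points lie around 0 on the x axis and near that line, with *Hspb1*, *Slc7a1* and *Tsc22d4* to the right and *B3glct* far to the left.

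Which genes stood apart depended in part on the reference library. Of the 6 members with the highest ratios and 500 counts or more, *Hspb1* (1.98, 2.36 and 2.34), *Pom121*, *Bud23* and *Tbl2* were also above 1.5 in all 3 libraries against the mean of the XX *Rnf12* libraries. *Slc7a1* was not (1.08, 1.09 and 1.11), since XCastO129.2 had 21.3 TPM where XX *Rnf12* had 41.7 ± 5.65 TPM (SD, n = 2), and neither was *Gtf3a* (1.31, 1.49 and 1.34). Of the 6 lowest, *Wasf3*, *Brca2*, *Zscan21*, *Uspl1* and *Srrt* had ratios of 0.79 to 1.33 against XX *Rnf12*. *Srrt* was at 363 TPM in XCastO129.2 and at 236 ± 40.7 TPM in XX *Rnf12*. Of the 122 members, 12 were under 0.75 in all 3 libraries against XCastO129.2 and 14 against XX *Rnf12*, and 4 were in both lists, among them *Zfp157*, *Pdgfa* and *Chst12*. Above 1.5 were 8 and 15 members, with 6 in both: *Abhd11*, *Bud23*, *Tbl2* and *Pom121* of the first stretch, and *Hspb1* and *Tsc22d4* beyond it. Genes between 0.5 and 1.5 in all 3 numbered 88 and 69, with 61 in both.

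**Figure D4:**
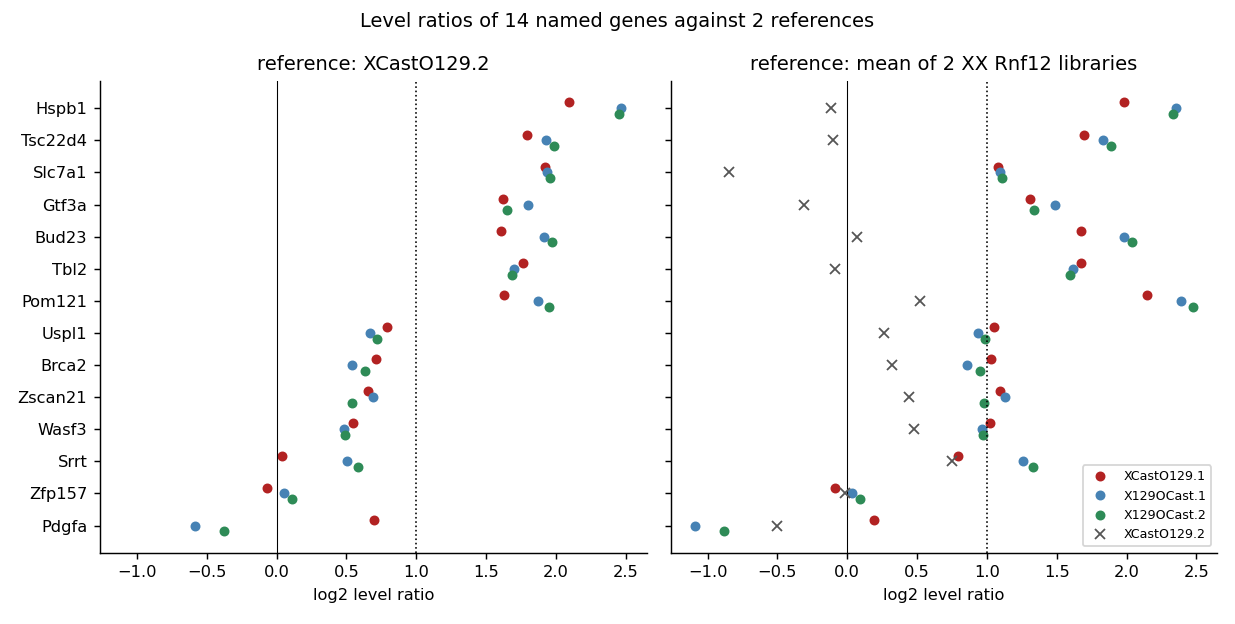
Log2 level ratio (x axis) of 14 named genes in XCastO129.1, X129OCast.1 and X129OCast.2 against XCastO129.2 (left) and against the mean of the 2 XX Rnf12 libraries (right), with XCastO129.2 itself as crosses. Hspb1 lies above 1.9 and Zfp157 near 0 in both panels, while Slc7a1 and the genes from Uspl1 to Wasf3 move towards 1 (dotted line) on the right.

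The 3 libraries differed from each other less than from the reference. Between X129OCast.1 and X129OCast.2 the median absolute log2 difference over the 122 members was 0.0635, and no member differed by more than 0.5. Between XCastO129.1 and these it was 0.175 and 0.197, with 15 and 17 members beyond 0.5 (12.3% and 13.9%, against 9.45% and 10.3% of the other genes). The widest ranges among members with 500 counts were those of *Ttyh3* (34.0 TPM in the reference, 48.4 in XCastO129.1, 92.7 and 92.5 in X129OCast.1 and X129OCast.2), *Nptx2* (74.6 TPM, then 189, 326 and 306), *Pcolce* (68.7 TPM, then 205, 117 and 132) and *Zfp655*. The deviation of 114 members beyond *Hip1* from their median went only weakly with expression level (rho 0.05), position (-0.13) and exon length (-0.19), and its size with the SD of the gene among the 20 deletion libraries of 1 batch (0.22).

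The same genes were then compared in the cells with 2 X chromosomes and the deletion lines. The altered share and level that marked the interval did not come from these, although the level in XX *Rnf12* set the TPM limit. XX wild type and XX *Rnf12* differed for 0 of 139 members by edgeR's quasi-likelihood test on their 4 libraries (adjusted p under 0.05; 10 members had an unadjusted p under 0.05, DESeq2 called 2, and edgeR called 0% of 11204 genes). *Hip1*, which codes for an endocytic adaptor protein, was the member with the lowest p (log2 fold change 1.15, SE 0.121, edgeR adjusted p = 0.281). *Fkbp6* had a log2 fold change of 2.17 (SE 0.337, edgeR adjusted p = 0.281). Both values are of XX wild type over XX *Rnf12*. Fibroblast markers summed to 309 and 374 TPM in replicate 1 of these conditions and to 110 and 113 TPM in replicate 2, and their part in this comparison was not tested. Same-numbered libraries of these conditions also deviated together over all expressed autosomal genes (correlation 0.714). With replicate number as a block edgeR called more than 0 members, as given in the last section, and 2 pairs cannot settle a pairing. In deletion E, the single deletion line in the batch of the XX libraries, edgeR called 0 members against XX *Rnf12* (0.196% of all genes), where 7 members had an unadjusted p under 0.05 and DESeq2 called 1. The share over all genes was not computed for DESeq2.

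Over the 13 deletion lines, edgeR called 136 of 1807 pairs of a member and a line against XX *Rnf12* (7.53%, 77 higher and 59 lower), against 19.9% of all pairs. The difference was gone when the XO libraries were not in the fit: when these 4 were left out, 368 pairs were called (20.4%, 243 higher and 125 lower), against 20.4% of all pairs. The members' share was then that of the background, and the median log2 fold change of the members ran from -0.02 to 0.11 over the lines. XCastO129.1 and XCastO129.2 form 1 group in the fit and differ by the shift described above. Without these 2 libraries alone 409 pairs were called, and the share of all pairs was not computed for that setting. All these lines except E are treated here as another batch than XX *Rnf12*, so line and batch cannot be told apart. For J and I-TEL the deletion cannot be told apart from their founder line either.

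The members called in the largest number of lines, chosen after their values were seen, were called in 1 direction. *Hmgb1*, a chromatin protein with many processed copies in the genome that may share its reads, was called lower in 11 lines without the XO libraries in the fit, with log2 fold changes from -1.66 to -0.86. It had 24.6 ± 2.98 TPM in XX *Rnf12* (n = 2) and from 7.92 to 24.0 TPM in the deletion libraries, with a median of 12.8. *Actb* was called lower in 9 lines (-0.62 to -0.37), and both counts were the same with all 30 libraries. *Baiap2l1*, which codes for an actin-bundling adaptor, was called higher in 10 lines (0.82 to 1.64), and in 7 with all 30 libraries. Other counts rested on leaving out the XO libraries: *Rac1*, called lower in 9 lines (-0.43 to -0.26), and *Taf6*, called higher in 10 (0.31 to 0.53), were called in 0 lines with all 30, and *Lmtk2* in 1 against 10. The largest called increases with all libraries in the fit were those of *Fkbp6* in deletion J (1.96, SE 0.581, edgeR adjusted p = 0.0259) and *Radil*, an adhesion effector, in deletion A (1.85). Deletion A is 1 library, so its call rests on the spread of the other conditions.

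**Figure D5:**
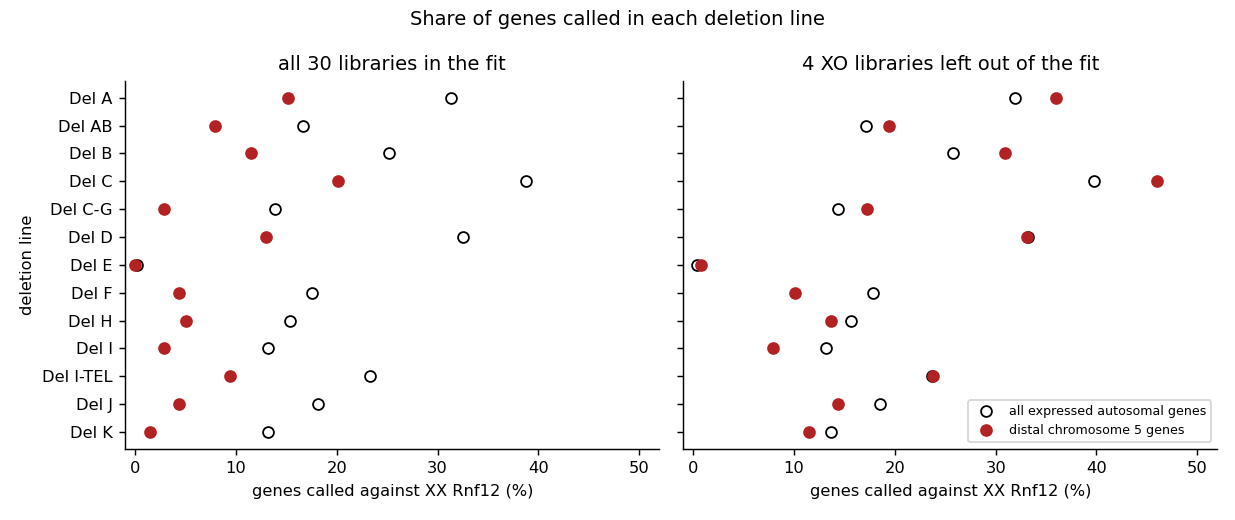
Percentage of genes called against XX Rnf12 (x axis, edgeR, adjusted p under 0.05) in each of 13 deletion lines (y axis), for all expressed autosomal genes (open circles) and the 139 distal chromosome 5 genes (red), with all 30 libraries in the fit (left) and without the 4 XO libraries (right). Red lies left of the open circle in each line on the left, and on either side of it on the right.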

How the data were processed

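Bulk RNA-seq libraries of 17 conditions (30 libraries) were used. Per the methods of the study, the authors trimmed reads of 50 bases (TrimGalore), mapped them (HISAT2 2.2.1) to an mm10 genome with strain SNPs masked, assigned them to alleles (SNPsplit) and counted reads on exons by strand; the submitters' processing notes name HTSeq 0.12.4 as a tool. The deposited values are raw counts per gene in 90 columns: all reads, 129 reads and Cast reads. Genes were matched to GENCODE M21 by identifier (181 of 55421 without a match were left out). TPM, 129 shares and log2 ratios were computed here, with TMM factors of 11204 expressed autosomal genes and a prior of 0.5 counts. Allele values needed 20 allelic counts, per-gene classes 200 counts in each XO library.

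Tests of the deletion lines (all 30 libraries, 1 term per condition) and of XX wild type used the quasi-likelihood test of edgeR 4.0.16 in R 4.3.3, adjusted by Benjamini-Hochberg over all genes at 0.05, with DESeq2 1.42.0 as the other tool. The SE beside an edgeR value was computed here as the size of the log2 fold change divided by the square root of the F statistic. On simulated data for XX wild type over 11204 genes, edgeR found 93 of 100 genes with a simulated log2 change of 1, 98 of 100 with a change of 2, and 19 of 11004 without one. The simulation gave every gene the same fixed spread beyond counting error, which was not estimated from these libraries. The real pairs had a chi-square per degree of freedom of 20.1 (XX wild type) and 29.7 (XX *Rnf12*), so these rates need not hold for the real test. Genes were named from a list of known roles, as the 6 highest, 6 lowest and 4 widest ratios, beside the thresholds, and as the 3 largest called changes per direction. Members, lists and tests were chosen with earlier results of these data known. Libraries were grouped by their labels, p-values measure the spread between those libraries, and the XO contrast received no test. Deletions A, B, AB and C-G have 1 library each, so their calls rest on the spread of the other conditions. Alternatives changed scaling, reference, filters, borders, tool and libraries. The values of 1 member are not reported here, though it is counted among the 139.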

Additional observations from a re-analysis of the deposited data

Results flagged for a closer look

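For 3 genes the level ratio to XCastO129.2 had one sign in XCastO129.1 and the other sign in both X129OCast libraries, and for *Zfp157* this was within counting error. The difference between the genotypes was not tested, since XCastO129.1 is a single library here. *Rnf12* status would differ between these genotypes too. *Tnrc18*, a chromatin-associated protein gene, had log2 level ratios of -0.22 in XCastO129.1 and of 1.52 and 1.65 in X129OCast.1 and X129OCast.2. Its level was 5.98 TPM in XCastO129.2, 5.13 in XCastO129.1, 16.7 in X129OCast.1 and 18.3 in X129OCast.2, against 13.7 ± 1.72 TPM in XX *Rnf12* (SD, n = 2). Its 129 share was 64.0%, 48.3%, 43.1% and 40.9% in the same order.

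*Pdgfa* had log2 level ratios of 0.70 in XCastO129.1 and of -0.58 and -0.37 in X129OCast.1 and X129OCast.2. *Zfp157* had ratios of -0.0700 in XCastO129.1 and of 0.0505 and 0.11 in X129OCast.1 and X129OCast.2, and the 95% counting interval of each included 0.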

How the results depend on the processing

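Over 30 libraries, the members' medians were recomputed with other scalings, filters, borders and references, and a value counted as moved when it changed by more than the SD of the same median over the deletion or paired-read libraries. This left 34 of 42 values of the level, 43 of 52 of the share and 39 of 54 of the allelic reads in place. The median of 129 reads in XCastO129.1, -0.02, turned positive in 3 of these. Of 684 values of named genes, 538 stayed in place. All values below are in the order XCastO129.1, X129OCast.1, X129OCast.2. Against the XX *Rnf12* mean the level ratio was 1.12, 1.18 and 1.19, that of 129 reads 1.01, 1.06 and 1.04 and that of Cast reads 2.57, 2.66 and 2.67, where the allelic part of all reads (12.18% to 12.7% in paired libraries, 21.9% to 22.0% in single-read ones) differs by read type. For members up to *Hip1* (an added border) the level was 1.62, 1.76 and 1.73, the share 17.7%, 16.2% and 17.3% (reference 45.2%), the 129 reads 0.0787, 0.38 and 0.51 and the Cast reads 2.18, 2.51 and 2.48, while 129 reads beyond it were 0.13 in X129OCast.2. For genes beyond position 140000000, the level was 1.01 in X129OCast.1, the share 29.0% in X129OCast.2 and 53.9% in the reference, and the 129 reads 0.0588 in XCastO129.1 and 0.0944 in X129OCast.2. With TPM the level was 1.02 in X129OCast.2. With counts pooled over genes the share was 25.2% in X129OCast.1, 25.8% in X129OCast.2 and 50.5% in the reference.

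The 115 members above the midpoint became 50 of 51 with 1000 counts or more and 62 of 64 beyond 140000000, because fewer genes enter. The 136 pairs called in deletion lines became 368 without the XO libraries and 409 without the XCastO129 libraries (both added), 67 to 146 without an XX *Rnf12* replicate (67 without replicate 1), and 12 to 13 without a replicate of each line with 2 clones, where each lone clone is assumed to vary like the other groups. The replicate block gave 138 pairs. For XX wild type, DESeq2 called 2 members, all 30 libraries in the fit gave 1, and the replicate block gave 13 (11 higher, 2 lower). Apart from the 368 pairs, the share over all genes was not computed for these alternative counts of calls. They thus do not show whether members were called more often than other genes. Over 78 pairs of conditions, same-numbered libraries deviated together in 19 (correlation over 0.1, from -0.375 to 0.714, median 0.0210), so the number did not mark a pairing across conditions in general. The highest of these, 0.714, was that of XX wild type and XX *Rnf12*, for which 2 pairs cannot settle a pairing. Depth limits allele values of genes with few counts: 8 members had under 20 allelic counts in an XO library.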
